A study of Homo sapiens with 12 samples.

Results

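The Rag GTPases, folliculin and the MiT/TFE transcription factors were described across HepG2 cells, an established human liver cancer cell line, at low and high glucose with and without valproic acid (VPA). The genes were selected by symbol, from rows that the authors kept for an average of at least 10 reads per sample, and the group was proposed with earlier results of these data in view. All 10 named genes were found, of 16389 genes in all. They are RRAGA, RRAGB, RRAGC, RRAGD, FLCN, FNIP1, FNIP2, TFEB, TFE3 and MITF. The lowest average in the group was that of MITF, with 74.8 reads per library, and the lowest in the whole table was 10 reads. TFEC, the remaining MiT/TFE gene, is not analysed here.

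Cells were kept for 48 h in medium with 5.5 mM glucose (LG) or 20 mM glucose (HG), and the groups LGV and HGV then received 1 mM VPA for another 12 h. Each group held 3 libraries of poly(A)-selected RNA from this single cell line, and whether replicates were separate cultures is not given in the sources used here, so p values measure the spread between these libraries, which may be technical. When the untreated cells were harvested relative to the 12 h of treatment is not stated, so that time in culture and VPA cannot be told apart. Between 29798442 and 45572694 reads per library were counted on genes. In bulk RNA, fewer cells with a transcript and less transcript per cell cannot be told apart. All 10 hepatocyte markers looked for were measured, with ALB between 18946 and 29437 CPM in every library (read counts scaled to library size with TMM factors). Of 13 markers of leukocytes, endothelial cells, fibroblasts and melanocytes, 6 had a row, PDGFRB with 18.5 to 57.9 CPM among them, and the other 7 are not analysed here. The 6 summed to 41.4 to 62.3 CPM in LG, 23.4 to 34.4 in HG, 38.1 to 47.3 in LGV and 39.1 to 43.6 in HGV, and their part in the results was not tested. Most of this sum was PDGFRB, with means of 49.2 CPM in LG, 23.7 in HG, 35.3 in LGV and 28.4 in HGV. CDH5 (0.123, 0.410, 0.359 and 1.29 CPM in the same order) and COL1A1 (0.226, 0.339, 1.09 and 1.97 CPM) were highest in HGV.

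The Rag GTPases work on the lysosome surface as pairs of RagA or RagB with RagC or RagD. When amino acids are plentiful, they bring the kinase complex mTORC1 to the lysosome, where it is switched on by RHEB. Folliculin, with its partners FNIP1 and FNIP2, acts on RagC and RagD and so governs whether mTORC1 phosphorylates TFEB and TFE3. When unphosphorylated, these factors enter the nucleus and raise genes for lysosomes and autophagy through E-box sites, and RRAGC, RRAGD and FLCN are themselves known targets, which closes a feedback loop. MITF, the master factor of pigment cells, belongs to the same family as TFEB and TFE3.

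RefSeq promoter sequences of build GRCh38.p14 matched 8 of the 10 genes, with 13 start sites, and not RRAGA and RRAGD. The 250 bases before each start were searched on both strands for the E-box CACGTG, for the longer GTCACGTG that contains it and is the core of the site known to bind TFEB and TFE3, and for TCATGTG, the site favoured by MITF. CACGTG lay in 6.34% and GTCACGTG in 2.16% of all 35116 promoter windows of this length. RRAGC, FNIP1 and RRAGB each held both, and the other 5 genes held neither. TCATGTG lay in 2.52% of all windows and, among these genes, in 1 of the start sites of FNIP2. A match is a run of letters and not a bound site. The promoters that hold the longer site are shown because RRAGC and FNIP1 were among the genes that fell in HG, with RRAGB beside them. RRAGB itself was not called there, and FLCN, TFE3 and FNIP2 were called lower without holding either E-box site. Capitals mark CACGTG. The RRAGC window lies at chr1:38859773-38860022 on the minus strand, with its E-box 112 bases before the start. The FNIP1 window lies at chr5:131797018-131797267 on the minus strand, with E-boxes 175 and 94 bases before the start. The RRAGB window lies at chrX:55717499-55717748 on the plus strand, with E-boxes 115 and 25 bases before the start.
RRAGC: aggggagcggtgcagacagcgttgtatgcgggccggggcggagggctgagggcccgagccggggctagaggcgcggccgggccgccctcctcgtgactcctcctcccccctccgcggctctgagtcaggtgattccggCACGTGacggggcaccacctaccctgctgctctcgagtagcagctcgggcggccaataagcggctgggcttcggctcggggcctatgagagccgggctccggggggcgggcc
FNIP1: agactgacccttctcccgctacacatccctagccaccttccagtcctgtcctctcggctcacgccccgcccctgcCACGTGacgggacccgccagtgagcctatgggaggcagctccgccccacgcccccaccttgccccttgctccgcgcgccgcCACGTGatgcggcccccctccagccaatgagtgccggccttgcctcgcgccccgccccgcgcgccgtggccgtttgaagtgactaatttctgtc
RRAGB: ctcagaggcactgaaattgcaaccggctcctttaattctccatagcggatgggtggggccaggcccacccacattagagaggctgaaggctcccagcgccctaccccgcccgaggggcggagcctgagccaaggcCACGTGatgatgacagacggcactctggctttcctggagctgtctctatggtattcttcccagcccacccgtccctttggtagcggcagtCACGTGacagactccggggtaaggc

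In GRCh37, the build used for counting, the Rag genes lie apart from each other. The annotation places RRAGA (ENSG00000155876) on chromosome 9 from 19049425 to 19051023 on the plus strand and RRAGB (ENSG00000083750) on chromosome X from 55744182 to 55785207 on the plus strand. It places RRAGC (ENSG00000116954) on chromosome 1 from 39303870 to 39325444 on the minus strand and RRAGD (ENSG00000025039) on chromosome 6 from 90074335 to 90121992 on the minus strand. The folliculin complex genes are FLCN (ENSG00000154803) on chromosome 17 from 17115526 to 17140502 on the minus strand, FNIP1 (ENSG00000217128) on chromosome 5 from 130977407 to 131132710 on the minus strand and FNIP2 (ENSG00000052795) on chromosome 4 from 159690178 to 159829202 on the plus strand. The factor genes are TFEB (ENSG00000112561) on chromosome 6 from 41651716 to 41703997 on the minus strand, TFE3 (ENSG00000068323) on chromosome X from 48886237 to 48900936 on the minus strand and MITF (ENSG00000187098) on chromosome 3 from 69788607 to 70017487 on the plus strand. Reads were counted over all exons of each gene.

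The first comparison, HG against LG, addressed what high glucose changes in untreated cells. Most of the machinery was lower in HG: RRAGD fell 3.82-fold, RRAGC 2.32-fold, FLCN 2.20-fold and FNIP1 1.95-fold, with smaller falls of TFE3 and FNIP2. At a false discovery rate (FDR) of 0.05 or less in edgeR's quasi-likelihood test, 6 of the 10 genes were lower and none was higher, with 8 of 10 at an unadjusted p under 0.05. Of all 15452 genes tested, 24.7% were called, 12.0% higher and 12.7% lower, and 5863 had an unadjusted p under 0.05. The median log2 fold change was -0.53 for the 10 genes and 0.01 for all genes.

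RRAGD, which encodes RagD, had 2.77, 2.69 and 1.86 CPM in the LG libraries, and 0.571, 0.628 and 0.672 CPM in the HG libraries, where these values stand for 18 to 24 reads. All HG libraries lay under all LG libraries, and the log2 fold change was -1.93 ± 0.28 (SE, FDR 0.000105). RRAGC, which encodes RagC, had 58.2, 81.3 and 47.4 CPM in LG and 29.4, 24.8 and 25.4 CPM in HG. The LG libraries were spread widely, yet the lowest of them was above the highest HG library, and the log2 fold change was -1.21 ± 0.17 (SE, FDR 5.59e-05). In the annotation used here for positions, which is later than the one used for counting, exons of RRAGC share 1183 bases with those of ENSG00000273637 on the same strand, and a read there cannot be assigned to either gene.

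The genes for RagA and RagB were not called in this comparison. RRAGA had 79.1, 71.1 and 90.3 CPM in LG and 77.0, 88.4 and 90.6 CPM in HG, and these ranges overlapped. RRAGB had 9.91, 13.1 and 9.37 CPM in LG and 9.10, 6.28 and 7.48 CPM in HG, lower in every HG library, with a log2 fold change of -0.49 ± 0.19 (SE, FDR 0.0656). RRAGA and RRAGB encode closely similar proteins, so reads that fit both may have been lost or shared.

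All 3 genes of the folliculin complex were called lower in HG. FLCN, whose product is the tumour suppressor folliculin, had 47.9, 59.2 and 36.2 CPM in LG and 20.8, 22.6 and 20.6 CPM in HG. Every LG library was above every HG library, and the log2 fold change was -1.14 ± 0.16 (SE, FDR 8.55e-05). FLCN shares 1161 exon bases with ENSG00000264187 on the same strand. FNIP1 had 37.2, 42.6 and 28.1 CPM in LG and 22.9, 14.8 and 17.0 CPM in HG, again without overlap, with a log2 fold change of -0.96 ± 0.18 (SE, FDR 0.000728). It shares 281 exon bases with ENSG00000273217 on the same strand. FNIP2 had 62.1, 88.9 and 59.4 CPM in LG and 44.2, 56.1 and 47.4 CPM in HG, and its log2 fold change of -0.49 ± 0.16 (SE) passed with an FDR of 0.0299. This call ended without HG replicate 1 (FDR 0.135), HG replicate 3 (0.134), LG replicate 1 (0.0557) or LG replicate 2 (0.205, log2 fold change -0.26), with upper quartile factors (0.0697) and with library size only (0.0779).

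Among the transcription factors, TFE3 had 91.4, 84.5 and 65.0 CPM in LG and 50.4, 56.6 and 52.6 CPM in HG. The groups did not overlap and the log2 fold change was -0.57 ± 0.14 (SE, FDR 0.00569), which rose to an FDR of 0.0593 without LG replicate 1. TFEB had 26.8, 30.3 and 21.8 CPM in LG and 18.5, 20.0 and 20.4 CPM in HG. It too was lower in every HG library, but its log2 fold change of -0.40 ± 0.15 (SE, FDR 0.0656) missed the threshold. TFEB shares 115 exon bases with ENSG00000231102 in the opposite orientation, which matters only if reads were counted without regard to strand, and this is not stated. MITF had between 0.299 and 0.536 CPM in LG and between 0.299 and 0.392 CPM in HG, 8 to 21 reads per library, and the groups overlapped. RRAGB and TFEB passed without LG replicate 3 (FDR 0.0253 and 0.0138), in 1 fit of all 12 libraries (0.0405 and 0.0474) and with DESeq2's Wald test (0.0495 and 0.0475). LG replicate 3 had the lowest value of the LG libraries for RRAGB, RRAGC, RRAGD, FLCN, FNIP1, FNIP2, TFEB and TFE3.

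**Figure D1:**
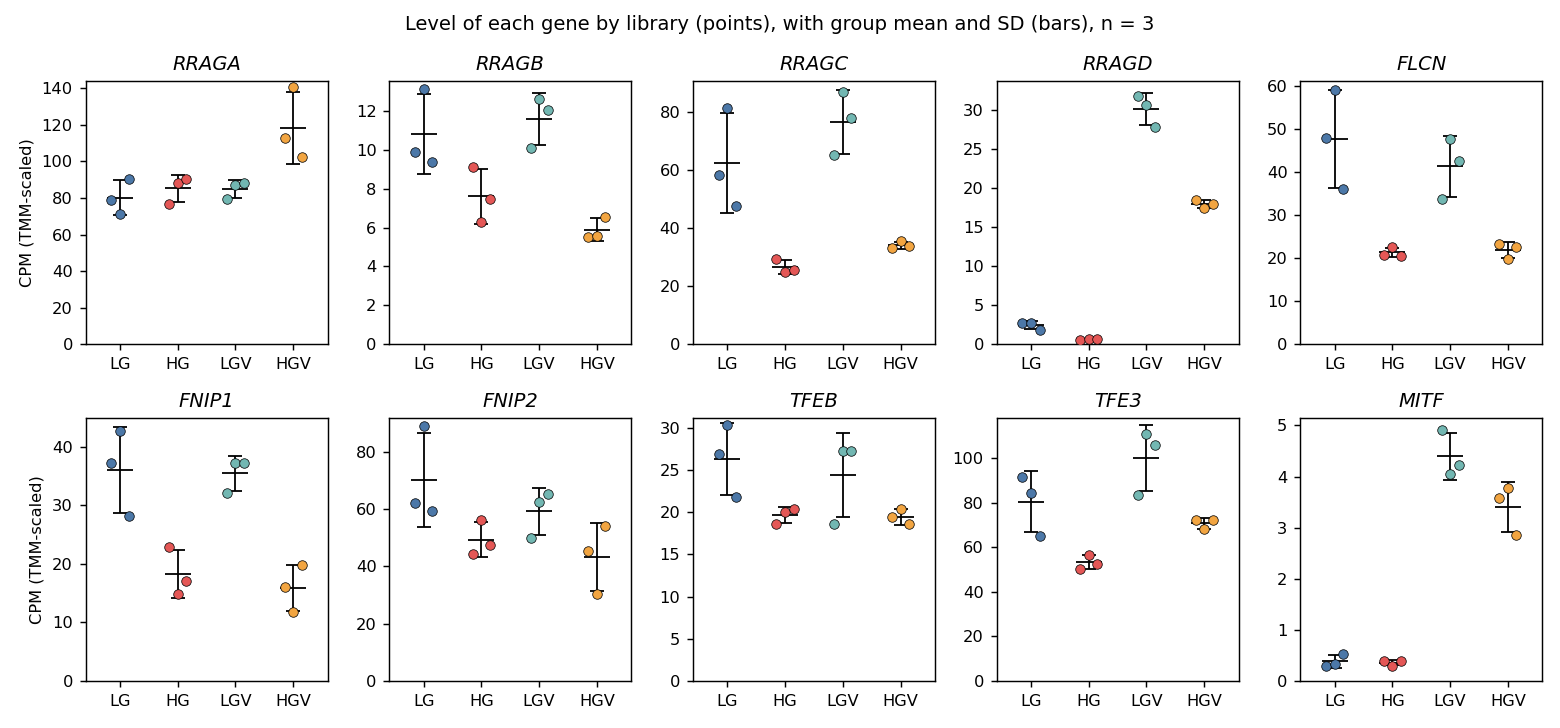
Level of each of the 10 genes in TMM-scaled CPM (vertical axes, each from 0) in the 3 libraries of LG, HG, LGV and HGV (points), with the group mean and SD as bars. RRAGD and MITF stand near 0 in untreated cells and rise in both VPA groups, while RRAGC, FLCN and FNIP1 lie lower in HG and HGV than in LG and LGV.

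The second glucose comparison, HGV against LGV, asked the same question in VPA-treated cells, with none of the libraries above. The genes were chosen with earlier results of these data in view, so it is not an independent test of them. Here 8 of the 10 genes were called, 7 lower in HGV and 1 higher, against 40.7% of the 16208 genes tested (19.5% lower and 21.2% higher). The median log2 fold change was -0.64 for the 10 genes and 0.01 for all genes. RRAGC and FNIP1 were again 2.27-fold and 2.26-fold lower with high glucose, RRAGB was 1.99-fold, FLCN 1.91-fold and RRAGD 1.70-fold lower, and RRAGA was higher.

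RRAGC had 64.9, 86.6 and 77.8 CPM in LGV and 33.0, 35.5 and 33.7 CPM in HGV, and its log2 fold change was -1.18 ± 0.13 (SE, FDR 2.6e-06). FNIP1 had 32.0, 37.1 and 37.1 CPM in LGV and 16.0, 11.8 and 19.8 CPM in HGV, also with a log2 fold change of -1.18 ± 0.16 (SE, FDR 2.44e-05). FLCN had 33.8, 47.7 and 42.5 CPM in LGV and 23.4, 19.8 and 22.6 CPM in HGV, with a log2 fold change of -0.93 ± 0.14 (SE, FDR 5.9e-05). For these 3 genes the treated cells showed a gap between glucose groups with no overlap, as the untreated cells did. RRAGB had 10.1, 12.6 and 12.1 CPM in LGV and 5.52, 5.59 and 6.56 CPM in HGV, a log2 fold change of -0.99 ± 0.16 (SE, FDR 0.00014). RRAGA, its paralog, moved the other way, from 79.5, 87.0 and 88.4 CPM in LGV to 113, 140 and 102 CPM in HGV, with a log2 fold change of 0.46 ± 0.13 (SE, FDR 0.00857). No library of either group crossed into the other for either gene.

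TFE3 had 83.2, 111 and 106 CPM in LGV and between 67.9 and 72.1 CPM in HGV, with a log2 fold change of -0.52 ± 0.13 (SE, FDR 0.00328). FNIP2 had 49.9, 62.5 and 65.1 CPM in LGV and 45.3, 30.4 and 53.9 CPM in HGV, which overlapped. Its log2 fold change of -0.47 ± 0.17 (SE, FDR 0.0308) was no longer called without HGV replicate 1 (FDR 0.0638), HGV replicate 2 (0.109, log2 fold change -0.27), LGV replicate 2 (0.0767) or LGV replicate 3 (0.118), under both scalings named above (0.0702 and 0.122) and in 1 fit of all 12 libraries (0.0527). TFEB had 18.6, 27.3 and 27.2 CPM in LGV and 19.4, 20.4 and 18.6 CPM in HGV, a log2 fold change of -0.34 ± 0.15 (SE, FDR 0.0713), and it passed without LGV replicate 1 (FDR 0.00519). MITF had a log2 fold change of -0.38 ± 0.20 (SE, FDR 0.131), although every HGV library lay under every LGV library.

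**Figure D2:**
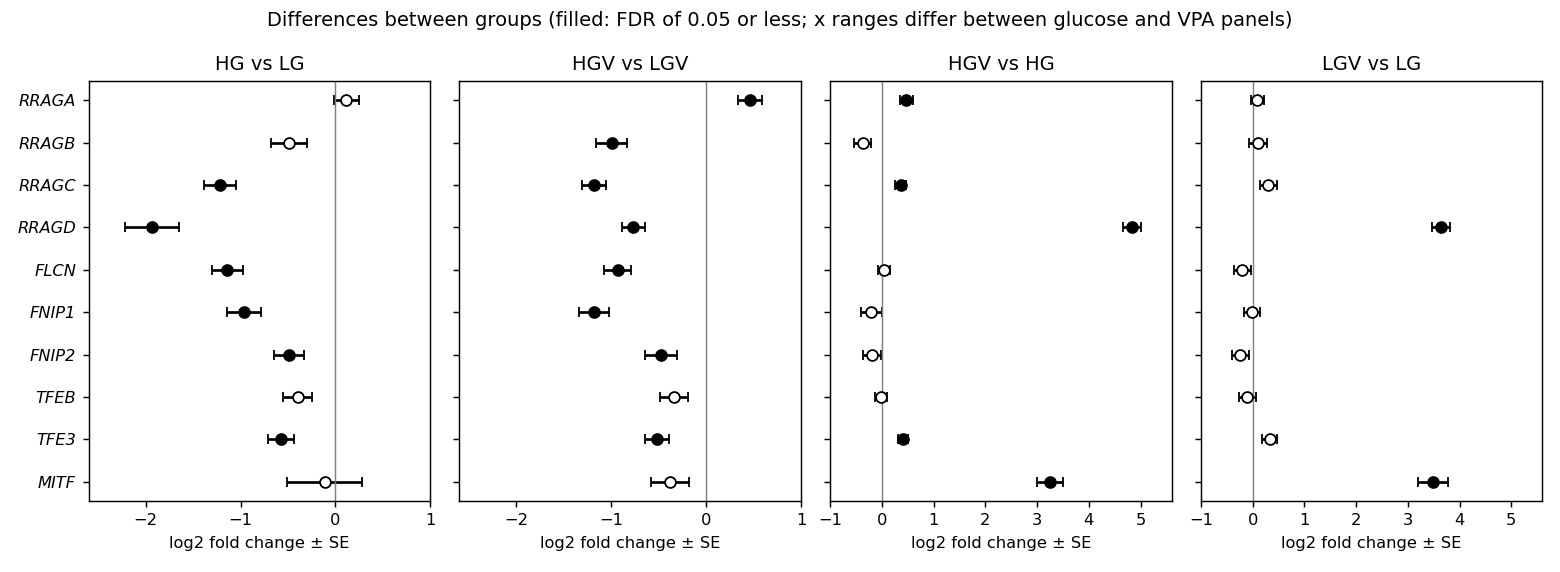
Log2 fold change with its standard error (horizontal axes) for each gene in the 4 comparisons, with filled points for an FDR of 0.05 or less. In the glucose panels 9 of the 10 genes in HG against LG lie left of 0, and in the VPA panels RRAGD and MITF lie between 3.24 and 4.83 while the other 8 lie between -0.37 and 0.47.

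VPA, an inhibitor of histone deacetylases, was the other question, asked at each glucose level. RRAGD and MITF rose many-fold at both, RRAGD 28.5-fold in HG and 12.5-fold in LG, and MITF 9.46-fold and 11.2-fold. In HG, RRAGA, TFE3 and RRAGC also rose, by 0.36 to 0.47 on the log2 scale. Of the 10 genes, 5 were called between HGV and HG, all higher, where 46.1% of 16188 genes tested were called (25.8% higher and 20.2% lower). Between LGV and LG 2 were called, both higher, where 41.6% of 15944 genes were called (21.7% higher and 19.9% lower). The median log2 fold changes were 0.20 for the 10 genes and 0.02 for all genes in HG, and 0.10 and -0.01 in LG. HGV against HG shares the HG libraries with HG against LG, LGV against LG shares the LG libraries with it, and HGV against LGV shares libraries with both VPA comparisons.

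RRAGD went from 0.571, 0.628 and 0.672 CPM in HG to 18.4, 17.4 and 17.9 CPM in HGV, or from at most 24 reads to at least 600. The log2 fold change was 4.83 ± 0.17 (SE, FDR 4.94e-09). In LG medium it went from 2.77, 2.69 and 1.86 CPM to 31.8, 30.6 and 27.9 CPM, a log2 fold change of 3.64 ± 0.18 (SE, FDR 7.73e-09). The 4 groups stood in the order HG, LG, HGV and LGV, and no neighbouring groups overlapped.

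MITF went from 0.380, 0.299 and 0.392 CPM in HG to 3.59, 3.78 and 2.85 CPM in HGV. The log2 fold change was 3.24 ± 0.25 (SE, FDR 7.01e-07). In LG medium it went from 0.299, 0.324 and 0.536 CPM to 4.92, 4.06 and 4.22 CPM, with a log2 fold change of 3.48 ± 0.29 (SE, FDR 4.6e-07). Every treated library was above every untreated one. The treated libraries held 97 to 164 reads of MITF each.

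Known targets of MITF in pigment cells were looked up beside it, of which PMEL, MLANA, OCA2 and SLC45A2 had a row, and TYR, TYRP1, DCT and TRPM1 are not analysed here. PMEL, which encodes a melanosome protein, rose from 1.05 ± 0.063 to 6.94 ± 1.09 CPM (SD, n = 3) between HG and HGV, a log2 fold change of 2.72, and from 0.637 ± 0.102 to 3.22 ± 0.165 CPM (SD, n = 3) between LG and LGV. PMEL was also higher in HGV than in LGV (log2 fold change 1.09). OCA2, which encodes a melanosome transporter, had 0.172 ± 0.098 CPM (SD, n = 3) in HG, 0.155 ± 0.096 in LG, 1.85 ± 0.351 in HGV and 0.723 ± 0.233 in LGV. OCA2 was under the filter of 10 reads in untreated cells and entered the VPA comparisons only through the treated group, so its calls there are no evidence of a change, and SLC45A2 likewise entered HGV against LGV only through LGV (0.634 against 0.138 CPM). MLANA was not called in the comparisons where it was tested, with group means between 0.272 and 0.396 CPM. PMEL and MLANA are also the melanocyte markers of the list above, and their part in the rise of MITF was not tested.

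The response of the other genes to VPA was small. RRAGA rose from 77.0, 88.4 and 90.6 to 113, 140 and 102 CPM in HG medium (log2 fold change 0.47 ± 0.13, SE, FDR 0.00852), with no overlap. TFE3 rose from 50.4, 56.6 and 52.6 to between 67.9 and 72.1 CPM there (log2 fold change 0.41 ± 0.10, SE, FDR 0.0046), also with no overlap. RRAGC rose from 29.4, 24.8 and 25.4 to 33.0, 35.5 and 33.7 CPM (log2 fold change 0.36 ± 0.11, SE, FDR 0.0181), and still lay under every LG library. This call was lost without HG replicate 2 (FDR 0.0764), without HG replicate 3 (0.0940) and in 1 fit of all 12 libraries (0.0720).

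In LG medium, TFE3 had a log2 fold change of 0.33 with VPA (standard error 0.14, FDR 0.0827) and RRAGC one of 0.31 (standard error 0.17, FDR 0.169). Both passed with library size only (FDR 0.00719 and 0.0289), a scaling that moved the median log2 fold change of all genes to 0.16 there. TFE3 also passed with upper quartile factors (FDR 0.0273, log2 fold change 0.41) and without LGV replicate 1 (FDR 0.0226). RRAGC also passed without LG replicate 2 (FDR 0.0062, log2 fold change 0.54) and with the replicate block (FDR 0.0460). FLCN, FNIP1, FNIP2 and TFEB were not called with VPA at either glucose level. Their log2 fold changes ran from -0.23 to 0.04, with standard errors between 0.11 and 0.20. RRAGB had log2 fold changes of -0.37 in HG (standard error 0.17, FDR 0.0903) and 0.11 in LG, and the former passed without HG replicate 2 (FDR 0.0441).

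Whether the response to VPA differed between the glucose levels was tested as an interaction over the 12 libraries. None of the 10 genes was called by the quasi-likelihood test, and 0.0427% of all 16389 genes were. An unadjusted p under 0.05 was found for RRAGA and RRAGD, and for 1852 of all 16389 genes. RRAGD came closest, with a response that was larger in HG than in LG medium by 1.20 ± 0.26 (SE, FDR 0.0627) on the log2 scale. It passed with edgeR's likelihood ratio test (FDR 0.00913) and with DESeq2's Wald test (0.0104), each of which called 1 of the 10 genes, and without LG replicate 2 (0.0470) or LG replicate 3 (0.0208). For RRAGA the difference was 0.39 ± 0.18 (SE, FDR 0.423) and for MITF -0.23 ± 0.40 (SE, FDR 0.891). For the other 7 genes it ran from -0.47 to 0.25.

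Levels were compared between genes only per kilobase of exon. By this measure, RRAGA was the most abundant of the group, with 50.1 to 74.1 CPM per kb as group means, and RRAGB made up 7.49% ± 2.10 (SD, n = 3) of the RRAGA and RRAGB sum in LG, 5.05% ± 1.30 in HG, 7.42% ± 0.459 in LGV and 2.91% ± 0.677 in HGV. On the partner side, shares in treated and untreated cells lay far apart. RRAGD made up 3.86% ± 0.669 (SD, n = 3) of the sum of RRAGC and RRAGD in LG and 2.33% ± 0.362 (SD, n = 3) in HG. With VPA its share was 28.5% ± 3.83 (SD, n = 3) in LGV and 34.6% ± 1.43 (SD, n = 3) in HGV. The lowest treated library had 26.2% and the highest untreated one 4.55%. The sum of the pair stood at 12.7 ± 3.45 CPM per kb (SD, n = 3) in LG, 5.30 ± 0.476 in HG, 20.9 ± 2.01 in LGV and 10.2 ± 0.152 in HGV.

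**Figure D3:**
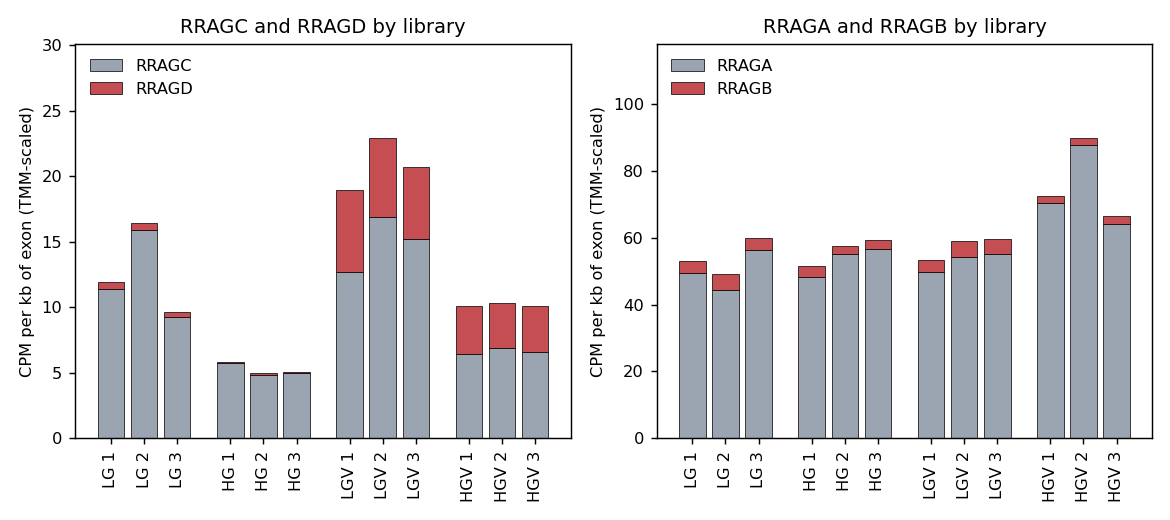
Stacked levels in CPM per kb of exon (vertical axes, from 0) of RRAGC and RRAGD, and of RRAGA and RRAGB, in each of the 12 libraries. RRAGD is a thin layer in untreated libraries and 26.2% or more of the RRAGC and RRAGD sum in every VPA library.

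TFE3 was the main MiT/TFE transcript in every group, with 80.9% to 84.9% of the sum of TFEB, TFE3 and MITF as group means. TFEB held 17.0% ± 1.42 (SD, n = 3) in LG, 18.7% ± 0.706 (SD, n = 3) in HG, 12.9% ± 0.849 (SD, n = 3) in LGV and 14.4% ± 0.933 (SD, n = 3) in HGV, with 15.4% in the highest treated and 15.5% in the lowest untreated library. MITF held 0.240% in LG and 2.28% ± 0.352 (SD, n = 3) in HGV. FNIP2 made up 54.5% to 60.3% of the FNIP1 and FNIP2 sum in the LG libraries, 58.2% to 73.1% in HG, 52.8% to 55.8% in LGV and 64.9% to 67.0% in HGV. HGV lay clear of LGV, while HG and LG overlapped. These shares rest on exon lengths of a later annotation than the one used for counting, and on every annotated exon of a gene being used.

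The genes whose pattern over the 12 libraries was most like each strongly changed member were found by the root mean square difference of log2 CPM, each gene centred on its own mean. Nearest to RRAGD was HK1, which encodes hexokinase 1, at 0.467, with mean levels of 6.18 CPM in LG, 2.83 in HG, 57.0 in LGV and 41.4 in HGV. TANC2 (0.526) and C10orf54 (0.538) came next. For MITF the nearest were CGN (0.303), PSTPIP2 (0.308) and EFNA3 (0.325), of which CGN had 3.75 CPM in LG, 3.91 in HG, 32.8 in LGV and 33.2 in HGV. FLCN was nearest to SOCS7 (0.0992), MAFG (0.110) and BCAR1 (0.129), FNIP1 to JMY (0.129), MTDH (0.133) and SOCS5 (0.141), and RRAGC to SNX30 (0.121), MAGT1 (0.134) and OSER1 (0.139). SOCS7 had 34.1 CPM in LG, 17.4 in HG, 31.0 in LGV and 17.6 in HGV. All these values compare the same 12 libraries and are a description of likeness only.

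The other genes of amino acid signalling to mTORC1 were described from lists of 3 to 9 genes, whose counts stand beside 24.7% of all genes called between HG and LG, 46.1% between HGV and HG, 41.6% between LGV and LG and 40.7% between HGV and LGV. Ragulator, the scaffold that anchors the Rag GTPases to the lysosome, had 5 genes tested, none of them called between HG and LG, with a median log2 fold change of -0.05. With VPA in HG medium, LAMTOR3 rose (log2 fold change 0.54, FDR 0.011) and LAMTOR1 fell (-0.44, FDR 0.00825). LAMTOR1 also fell in LG medium (-0.69, FDR 0.000631), and LAMTOR5 was lower in HGV than in LGV (-0.48, FDR 0.0097). The medians of the 5 genes were -0.03 with VPA in HG, -0.27 with VPA in LG and 0.17 for HGV against LGV.

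GATOR1, the complex that switches off RagA and RagB, and KICSTOR, which tethers it to the lysosome, held several genes that fell with VPA. NPRL3 of GATOR1 fell from 41.4 ± 3.51 to 19.9 ± 1.43 CPM (SD, n = 3) in HG medium and from 36.5 ± 5.21 to 14.2 ± 1.55 CPM (SD, n = 3) in LG medium. Of the 3 GATOR1 genes, none was called between HG and LG, DEPDC5 rose with VPA in HG medium (log2 fold change 0.34, FDR 0.0267), and NPRL2 and NPRL3 were higher in HGV than in LGV (both 0.47, FDR 0.00848 and 0.0118). The GATOR1 medians were 0.21 for HG against LG, 0.19 and -0.04 with VPA in HG and LG, and 0.47 for HGV against LGV. In KICSTOR, KPTN had log2 fold changes with VPA of -1.16 in HG and -1.63 in LG medium, and ITFG2 of -1.05 and -1.46. Both genes passed at both levels, and C12orf66 fell with VPA in LG medium (-0.62, FDR 0.031). C12orf66 was higher in HG than in LG (0.60, FDR 0.0272), where KPTN (0.28, FDR 0.224) and ITFG2 (0.11, FDR 0.691) were not called. C12orf66 (0.96) and KPTN (0.71) were higher in HGV than in LGV.

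GATOR2, which opposes GATOR1, had 5 genes tested. SEC13, which also serves the COPII coat and the nuclear pore, fell in HG (log2 fold change -0.64, FDR 0.000989) and was the 1 gene called there. With VPA, SEH1L fell in HG medium (-0.34, FDR 0.0192), and SEC13 (-0.46) and WDR59 (-0.39) fell in LG medium. Between HGV and LGV, SEH1L was lower (-0.54) and WDR59 higher (0.34). The medians were 0.17 for HG against LG, -0.27 and -0.39 with VPA in HG and LG, and 0.05 for HGV against LGV.

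Among the amino acid sensors, the sestrin SESN3 rose from 2.87 ± 0.378 to 20.4 ± 3.77 CPM (SD, n = 3) with VPA in HG medium and from 1.64 ± 0.115 to 12.4 ± 1.47 CPM (SD, n = 3) in LG medium. SESN2, the leucine-binding sestrin that stress induces, fell in HG against LG (log2 fold change -0.62, FDR 0.00226) and with VPA at both levels (-0.47 and -0.74). Of the sensors tested, 2 were higher and 2 lower of 6 between HG and LG, 3 and 3 of 7 between HGV and HG, 3 and 3 of 6 between LGV and LG, and 2 and 2 of 7 between HGV and LGV. All genes were called at 24.7%, 46.1%, 41.6% and 40.7% in these comparisons. SLC38A9, the lysosomal arginine sensor, rose with VPA at both levels (0.45 and 0.73) and was lower in HGV than in LGV (-0.73), where SESN3 was higher (0.70). LARS, the leucyl-tRNA synthetase, rose in HG against LG (0.43, FDR 0.0166). It fell with VPA in HG medium (-0.56, FDR 0.00135) and in LG medium (-0.44, FDR 0.00759). GATSL3, the arginine sensor CASTOR1, had 0.817 CPM in HGV, 0.169 in HG and 0.297 in LGV. It was tested only in comparisons with HGV, where it is high, so these calls, counted among the 3 and the 2 higher sensors, are no evidence of a change. CASTOR2 is not analysed here. The sensor medians were 0.14 for HG against LG and 0.12 for LGV against LG. Those for HGV against HG (0.30) and HGV against LGV (0.28) include GATSL3, so no direction is read from them.

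Of the 9 genes of mTORC1, RHEB and the TSC complex, AKT1S1 alone was called between HG and LG (log2 fold change -0.48, FDR 0.0146). AKT1S1 encodes PRAS40, an inhibitory subunit of mTORC1, and with VPA it fell by 1.59 on the log2 scale in HG and by 1.39 in LG medium. DEPTOR, another inhibitor of the complex, rose by 1.46 and 1.35. MLST8 (-0.67 and -1.01) and RPTOR (-0.67 and -0.86), which encode subunits of mTORC1, fell with VPA at both levels. In all, 2 of these genes were higher and 3 lower with VPA in HG medium, 2 higher and 4 lower in LG medium, and 2 higher and 2 lower in HGV against LGV, among them AKT1S1 (-0.71), DEPTOR (0.63) and TSC1 (-0.55), a subunit of the inhibitor of RHEB. The medians lay between -0.14 and 0.09 in the 4 comparisons.

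**Figure D4:**
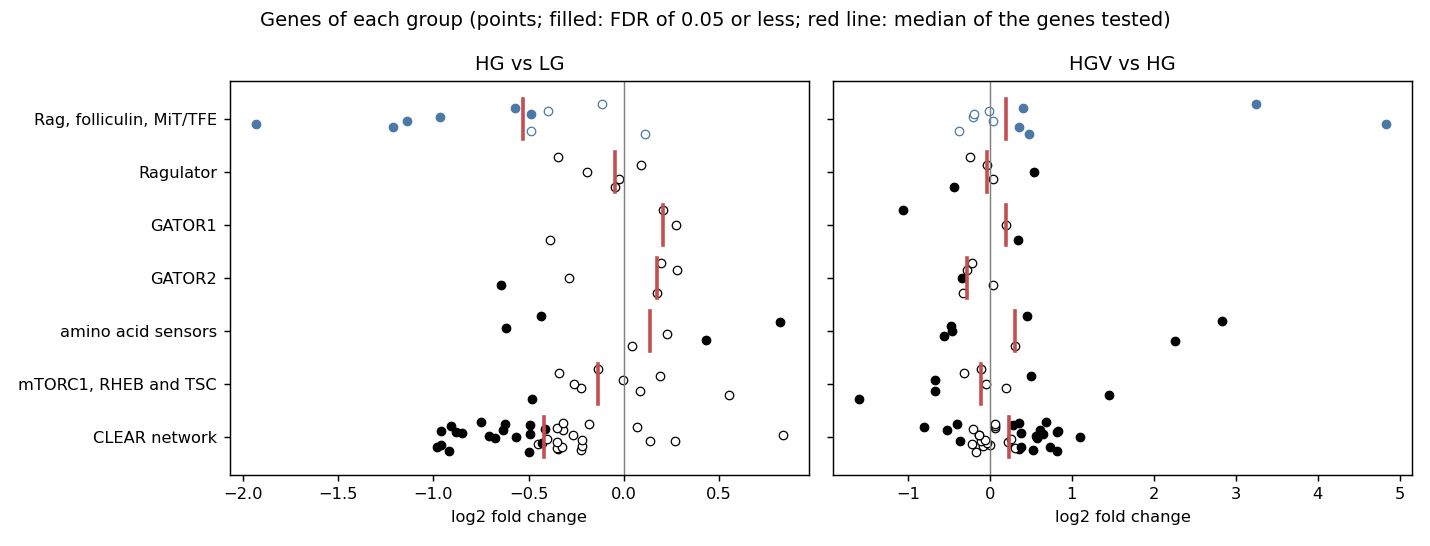
Log2 fold change (horizontal axes) of each gene of the Rag, folliculin and MiT/TFE group (blue) and of 6 lists of the pathway (black) for HG against LG and HGV against HG, filled at an FDR of 0.05 or less, with the median of each list as a red line. In the panel of HG against LG, the 19 called genes of the CLEAR network all lie left of 0. The sensor median in the panel of HGV against HG includes GATSL3, which was tested there only through HGV.

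The CLEAR network is the set of lysosome and autophagy genes known as targets of TFEB and TFE3, and 36 of the 38 listed were tested. Between HG and LG, 19 of the 36 were lower and none was higher at this threshold, where 12.7% of all genes were lower and 12.0% higher, with a median log2 fold change of -0.42 against 0.01 for all genes. The largest falls were those of ATP6V1D, a subunit of the lysosomal proton pump, from 23.9 ± 2.47 to 12.0 ± 1.86 CPM (SD, n = 3), of CLCN7, a lysosomal chloride transporter, from 128 ± 24.5 to 64.9 ± 5.31 CPM (SD, n = 3), and of MCOLN1, a lysosomal calcium channel, from 9.43 ± 2.13 to 4.74 ± 0.749 CPM (SD, n = 3). The count was 12 without HG replicate 3, and with library size only 16 were lower and 1 higher. CTSD, a lysosomal protease, had a log2 fold change of 0.14 (FDR 0.447), and CTSB and PSAP were not called either.

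Between HGV and LGV, 17 of the 36 CLEAR genes fell and 2 rose (median log2 fold change -0.31), where 19.5% of all genes were lower and 21.2% higher. The count of 17 was 12 at an FDR of 0.01, with upper quartile factors and without HGV replicate 3, LGV replicate 2 or LGV replicate 3. It was 13 with library size only and without HGV replicate 1, and 20 without HGV replicate 2. The count of 2 was 3 with upper quartile factors. It was 1 at an FDR of 0.01, with DESeq2 size factors or Wald test and in 1 fit of all 12 libraries. Leaving out any one of the HGV libraries, LGV replicate 2 or LGV replicate 3 also made it 1. ATP6V1D (log2 fold change -1.03), UVRAG (-0.94) and GABARAPL1 (-0.91) were lower by most. VPA in HG medium gave 16 higher and 4 lower (median 0.24), where 25.8% of all genes were higher and 20.2% lower. GLA, the alpha-galactosidase, rose by 1.10, MCOLN1 by 0.84 and MAP1LC3B, an autophagosome protein, by 0.82 on the log2 scale. In LG medium 9 of the 36 rose and 4 fell (median 0.06), where 21.7% of all genes were higher and 19.9% lower. The median ran from 0.013 to 0.13 with 1 library left out. SGSH (-1.13) and NAGLU (-0.97), enzymes that break down heparan sulphate, fell, and ATP6V1D rose (0.76). With library size only, 16 were higher and 4 lower in LG medium. The count of 4 lower in HG medium was 2 without HGV replicate 1. No gene described from these lists was called in the interaction.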

How the data were processed

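RNA of 12 HepG2 libraries, 3 each of LG, HG, LGV and HGV, was measured by RNA-seq. According to the methods of the study, trimmed single-end reads were mapped to GRCh37 by STAR, assigned to Ensembl genes by featureCounts above a minimum mapping quality, and genes averaging under 10 reads were dropped. The authors deposited the raw counts, with no normalization, of 16389 genes. The library kit marks strand, but the strand setting of the counting is not given in the sources used here. Read totals limit the precision, and reads carry no molecular identifiers.

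The main test was the quasi-likelihood F test of edgeR 4.0.16 (R 4.3.3), on genes averaging at least 10 reads in the libraries compared, with TMM factors (0.879 to 1.095) and Benjamini-Hochberg FDR over all genes tested. The call threshold was an FDR of 0.05. The interaction used 12 libraries. The standard error (SE) is the log2 fold change divided by the root of F. GENCODE annotation on GRCh37, which placed 15975 genes by identifier, gave positions, overlaps and exon lengths. Plots were drawn with matplotlib 3.10.9.

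The members and lists were chosen with earlier results of these data known. From each list, up to 3 genes with the largest change among those called without overlap were named per comparison, besides further genes chosen after their values were seen. For members called with an absolute log2 fold change of at least 1, the 3 most alike genes were named, among those averaging 1 log2 CPM or more (prior count 2).

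Alternatives were DESeq2 size factors, upper quartile factors and library size, the likelihood ratio test, DESeq2 1.42.0 with its Wald test, no filter, a filter of 1 CPM in 3 libraries, replicate number as a block, 1 fit of 12 libraries, an FDR of 0.01 and leaving out each library. CLEAR counts under these settings were chosen after seeing the data. The scripts were tested on simulated counts. Same-numbered libraries of the groups compared had correlations of deviations across genes from -0.198 to 0.316, below 0.1 for at least 1 pair in every comparison, so numbers were not taken to pair libraries. No 2 libraries of a group were alike within sampling noise. Counts and medians over KICSTOR are not reported here.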

Additional observations from a re-analysis of the deposited data

How the results depend on the processing

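Of 849 refitted log2 fold changes of the 10 genes, 780 kept their direction and their side of the threshold, 20 lost and 18 gained a call, and 31 changed sign. None of those that changed sign had been called. They were TFEB in HGV against HG with upper quartile factors (0.045) and library size only (0.11), TFEB in LGV against LG with library size only (0.058), and FNIP1 in LGV against LG with upper quartile factors (0.070), library size only (0.15), a filter of 1 CPM (0.0064) and the replicate block (0.0059). With 1 library left out, values that changed sign ranged from -0.23 to 0.21 for MITF in HG against LG, from -0.38 to 0.013 for FNIP2, -0.077 to 0.019 for TFEB and -0.0092 to 0.11 for FLCN in HGV against HG, and from -0.20 to 0.073 for TFEB and -0.15 to 0.13 for FNIP1 in LGV against LG. In the interaction they ranged from -0.19 to 0.21 for FNIP2, -0.039 to 0.22 for TFE3, -0.064 to 0.22 for TFEB and -0.21 to 0.23 for RRAGC.

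The number of the 10 genes called changed by more than 1.5 times for LGV against LG with library size only (4), which also moved the median of all genes to between 0.10 and 0.16 in the pairwise comparisons, and in the interaction, from 0 to 1, with the likelihood ratio test, the Wald test and with 1 library left out (0 to 1). With 1 library left out it ranged from 4 to 8 for HG against LG and from 2 to 3 for LGV against LG. Of all genes, 1852 were called at an FDR of 0.01 in HG against LG and 4263 in HGV against LGV. In the interaction 1 was called at an FDR of 0.01 and with library size only, 202 with the likelihood ratio test, 162 with the Wald test and 13 with the replicate block. With 1 library left out, all-gene counts ranged from 1933 to 5338 for HG against LG and from 1 to 217 for the interaction. Library size only also moved the split of higher against lower calls, from 1854 and 1959 to 2172 and 1297 in HG against LG, from 4184 and 3272 to 5182 and 2424 in HGV against HG, from 3461 and 3177 to 4500 and 1956 in LGV against LG, and from 3444 and 3160 to 3761 and 2309 in HGV against LGV. Replicate numbers were not taken to pair libraries, although the correlations cannot exclude pairing. Among the 10 genes, the block called RRAGC in LGV against LG (0.33) and moved no other call. For all genes it moved the count from 3813 to 3351 in HG against LG and from 7456 to 8229 in HGV against HG. The count went from 6638 to 6971 in LGV against LG and from 6604 to 7308 in HGV against LGV. The cause of these changes was not tested. MITF and RRAGD in untreated cells rest on 8 to 108 reads per library, which limits the precision of their fold changes.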
